A study of Mus musculus with 69 samples.

Results

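The 8 genes described here are Ehf, Elf3, Elf5, Grhl1, Grhl2, Grhl3, Ovol1 and Ovol2, which encode transcription factors of epithelial cells and are called the members below. They were taken by their symbols and are 8 of the 55964 genes in the count tables. The study examined female mice whose Zeb1 gene carries changes in the 3′ untranslated region that disrupt the sites for the microRNAs miR-200a and miR-200b. WT mice carried no altered allele, Zeb1 200H mice carried 1 and Zeb1 200M mice carried 2. Pituitary, hypothalamus and ovary were each sequenced as whole tissue in all 3 genotypes, in a young virgin cohort of 8 to 12 weeks and in an older cohort of 28 to 36 weeks that had finished a breeding trial. All mice were on the C57BL/6J background, and tissue was taken at proestrus. The 18 groups hold 4 libraries each, except that young WT pituitary, older 200M pituitary and older 200M hypothalamus hold 3. The altered lines came from 2 embryonic stem cell clones, and the labels do not say from which line a library came. The methods state that tissue replicates came from different mice, and the labels name no animal.

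Levels are in CPM, the reads assigned to a gene for every 1000000 reads assigned to all genes of that library. The library total was first scaled by its TMM factor, edgeR's correction for composition among the libraries of a tissue and cohort. A library held 3321845 to 5143128 assigned reads in young hypothalamus, and 4527753 to 14655095 in the other tissues and cohorts. Each tissue held its own defining markers, none of them at 0 in any group: 9 granulosa and theca markers summed to 2345 to 21591 CPM and 7 oocyte markers to 164 to 472 CPM in ovary, and the hypothalamic neuron markers to 320.4 to 1506 CPM in hypothalamus. Several of the 8 genes had fewer than 30 reads in a library, and such values carry a large counting error. Young libraries were stranded and made from total RNA after removal of ribosomal RNA, whereas older libraries were unstranded and made from poly(A) RNA. Levels are therefore set side by side only within a cohort. In the unstranded libraries, reads from Elf3, Grhl2, Ovol1 and Ovol2 cannot be told apart from reads of annotated genes that overlap them on the opposite strand.

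The 8 genes belong to 3 families. EHF, ELF3 and ELF5 are the epithelial members of the ETS family, GRHL1, GRHL2 and GRHL3 are grainyhead-like factors that activate junction and barrier genes, and OVOL1 and OVOL2 are zinc finger repressors that hold epithelial cells in the epithelial state. ZEB1 works in the opposite direction: it represses epithelial genes through E-box sequences such as CAGGTG, and GRHL2 and OVOL2 are known to oppose it. In the mouse pituitary most hormone-producing cells are epithelial in origin, whereas the hypothalamus is mainly neural, and epithelium in the ovary is found mostly at its surface.

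Ehf (ENSMUSG00000012350) lies on the minus strand at chr2:103263433-103303278 and Elf5 (ENSMUSG00000027186), on the plus strand at chr2:103411688-103450989, with 108409 bases between them. Elf3 (ENSMUSG00000003051) lies at chr1:135253575-135258568. The grainyhead genes are dispersed, with Grhl1 (ENSMUSG00000020656) at chr12:24572283-24617391, Grhl2 (ENSMUSG00000022286) at chr15:37233036-37363569 and Grhl3 (ENSMUSG00000037188) at chr4:135541888-135573630. Ovol1 (ENSMUSG00000024922) lies at chr19:5549136-5560646 and Ovol2 (ENSMUSG00000037279) at chr2:144305175-144332146. All coordinates are those of GRCm38 and span whole genes.

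The E-box that ZEB1 is known to bind was looked for in the RefSeq promoters of the 8 genes, because Zeb1 is the gene altered in these mice. No promoter was listed for Ehf, Grhl2 and Ovol1, which were therefore not searched. A promoter here is 250 bases before to 50 bases after an annotated start in GRCm38.p6. The letters searched were CAGGTG and its reverse complement CACCTG, and not CAGGTA, which the CAGGTR consensus given in the paper also allows. Promoters of 5 genes were searched (Elf3, Elf5, Grhl1, Grhl3 and Ovol2), 7 in all, and 4 of them, belonging to Elf3, Elf5 and Grhl3, held the motif. Of all 32851 promoters of that length, 6640 (20.2%) held it. A match is a run of letters and not a measured binding site. The stretch of 30 bases around the match nearest before the start of Elf3 and of Grhl3 is shown 5′ to 3′ on the strand of the gene, with the motif in capitals. For Elf3 it is at chr1:135258595-135258624 and its motif begins 140 bases before the start and for Grhl3 it is at chr4:135573634-135573663 and 19 bases before.
Elf3: gaatatgcaaatCACCTGggacagggagcc
Grhl3: agttaacatctgCACCTGctgtggtctagc

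In young WT tissue, Ehf was the most abundant of the 8 genes in pituitary and ovary, and Grhl1 was the most abundant in hypothalamus. To set genes against each other, CPM was divided by the exon length of the gene in kilobases (CPM per kb). In young WT pituitary Ehf stood at 6.27 ± 2.02 CPM per kb (SD, n = 3). Grhl1 followed at 1.86 ± 0.60, Elf3 at 1.23 ± 0.27 and Grhl2 at 0.554 ± 0.026 CPM per kb. Ovol2 at 0.427 ± 0.228, Elf5 at 0.346 ± 0.10, Grhl3 at 0.154 ± 0.067 and Ovol1 at 0.0721 ± 0.0033 CPM per kb were the lowest. Ehf libraries all lay above those of every other gene, whereas Grhl1 and Elf3, Grhl2 and Ovol2, and Ovol2 and Elf5 overlapped.

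In young WT ovary Ehf again led, at 4.81 ± 1.07 CPM per kb (n = 4), followed by Elf3 at 1.80 ± 0.44, Grhl1 at 1.05 ± 0.27 and Grhl3 at 0.83 ± 0.203. Grhl2 at 0.530 ± 0.268, Ovol2 at 0.460 ± 0.20, Ovol1 at 0.399 ± 0.130 and Elf5 at 0.206 ± 0.188 CPM per kb lay within each other's spread. In young WT hypothalamus Grhl1 reached 2.65 ± 0.44 CPM per kb and Grhl3 0.337 ± 0.283, while the other 6 genes stood at or below 0.030 CPM per kb. Older WT pituitary and hypothalamus, measured with the other library chemistry, had the same leaders. Pituitary Ehf was at 7.18 ± 1.06 CPM per kb, ahead of Elf3 at 3.75 ± 0.30, Grhl1 at 1.40 ± 0.33 and Grhl2 at 0.786 ± 0.168, and hypothalamic Grhl1 was at 5.23 ± 0.50. In older WT ovary Elf3 was above Ehf in each of the 4 libraries, with means of 4.81 ± 6.56 and 3.17 ± 3.95 CPM per kb. Their SDs come from replicate 1, at 14.6 for Elf3 and 9.08 for Ehf, and in replicate 4 Grhl3 was the highest of the 8 genes, at 2.11 CPM per kb.

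**Figure D1:**
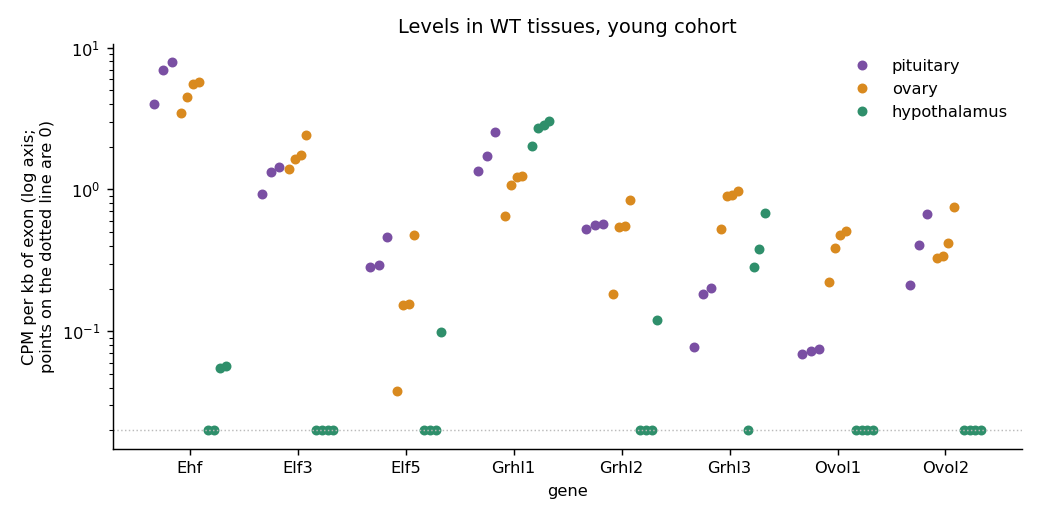
Level of each of the 8 genes in young WT pituitary, ovary and hypothalamus, in CPM per kb of exon on a log axis, with a point per library; libraries with no read are drawn on the dotted line. Ehf leads in pituitary (mean 6.27) and ovary (mean 4.81) and is near the bottom in hypothalamus, where Grhl1 (mean 2.65) is highest.

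The tissues were compared for each gene in the young WT libraries with edgeR's quasi-likelihood test, with Benjamini-Hochberg adjustment over all genes tested and a call at an adjusted p under 0.05. Between pituitary and ovary 4 of the 6 tested genes were called, where 68.3% of all tested genes were. Grhl3, best known for skin barrier formation and neural tube closure, was lower in pituitary, with log2(pituitary/ovary) = -2.23 (adjusted p = 0.000701, SE 0.48). Ovol1 was lower by a similar amount, at -2.22 (adjusted p = 0.00426, SE 0.60). Grhl1 was higher in pituitary, at 0.98 (adjusted p = 0.00442, SE 0.27). Ehf was also called higher in pituitary, at 0.54 (adjusted p = 0.0294, SE 0.21), but that call was lost without pituitary replicate 2 or the unnumbered one, or ovary replicate 2 or 3, where the value lay between 0.35 and 0.50. The difference between pituitary and ovary was -0.39 for Elf3 (interval of 2 SE, -0.97 to 0.18) and 0.25 for Grhl2 (interval -0.53 to 1.02), neither of them called.

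Against hypothalamus, edgeR called Ehf higher in both pituitary (adjusted p = 2.94e-13) and ovary (adjusted p = 5.7e-12). Ehf passed the filter in these fits through its pituitary or ovary reads, so both p-values are given as a description. Of all tested genes, 72.2% differed between pituitary and hypothalamus and 76.7% between ovary and hypothalamus. The 4 young WT hypothalamus libraries held 2 Ehf reads in all, against 804 in the 3 pituitary libraries and 864 in the 4 ovary libraries. Scaled for depth, the ratio was 218 for pituitary (95% exact interval for counting error only, 60.2 to 1.8e+03) and 173 for ovary (47.9 to 1.43e+03). No Elf3 read was counted in young WT hypothalamus. A floor of 3 counts allows up to 0.184 CPM over the group, here without TMM scaling. Elf3 was therefore at least 13-fold higher in pituitary and at least 19.9-fold higher in ovary. Grhl2 had 3 reads in hypothalamus and 83 in pituitary, a ratio of 15 (4.96 to 74.3).

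Grhl1 ran the other way. It was lower in ovary than in hypothalamus, at -1.62 on the log2 scale (adjusted p = 3.68e-06, SE 0.24), and lower in pituitary than in hypothalamus, at -0.60 (adjusted p = 0.028, SE 0.24). The pituitary difference lost its call under DESeq2 (adjusted p = 0.0689), with no filter (-0.54, adjusted p = 0.0599), with a replicate block (-0.29, adjusted p = 0.439) and without pituitary replicate 1 or the unnumbered one, or hypothalamus replicate 1 or 4 (-0.58 to -0.41). For Grhl3 the ovary minus hypothalamus difference was 0.93 (interval -0.08 to 1.95, adjusted p = 0.101), and it was called without ovary replicate 3 (1.13) or hypothalamus replicate 4 (1.60).

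Zeb1 itself was read first as a check of the genotype labels. In young pituitary its level was 96.6 ± 1.67 CPM in WT (SD, n = 3), 129.9 ± 3.60 in 200H (n = 4) and 137 ± 4.12 in 200M (n = 4). In older pituitary the levels were 58.6 ± 3.10 (n = 4), 73.6 ± 2.71 (n = 4) and 85.7 ± 6.49 CPM (n = 3). In 200M the log2 differences from WT were 0.52 in young (adjusted p = 2.39e-05, SE 0.06) and 0.55 in older pituitary (adjusted p = 0.000833, SE 0.09). In ovary they were -0.06 and -0.22, neither called, and in hypothalamus -0.17 and -0.26, also not called. The hypothalamus libraries of 200M nevertheless lay below all those of WT in both cohorts. They read 177 to 211 CPM against 219 to 226 in the young cohort, and 109 to 119 against 122 to 142 in the older cohort.

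In the pituitary of both cohorts Ehf fell to between 19.8% and 25.4% of its WT mean in both altered genotypes, and it was the only one of the 8 genes that was called there. Its young WT libraries read 18.4, 32.0 and 36.2 CPM, from counts of 180, 286 and 338. The young 200H libraries read 7.75, 6.54, 2.40 and 6.21 CPM, and the young 200M libraries 7.99, 6.76, 6.52 and 4.57 CPM. Each altered library lay below the lowest WT library, and 200H and 200M overlapped. Older WT pituitary read 28.8, 29.0, 37.6 and 37.0 CPM. Older 200H pituitary read 7.64, 9.91, 8.92 and 7.09 CPM, and older 200M pituitary 6.58, 5.50 and 9.11 CPM. Here too the altered genotypes overlapped each other and lay entirely below WT.

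As means, Ehf went from 28.9 ± 9.32 CPM in young WT to 5.72 ± 2.31 in 200H and 6.46 ± 1.42 in 200M, the latter 22.4% of WT. In the older cohort it went from 33.1 ± 4.87 CPM to 8.39 ± 1.27 in 200H and 7.06 ± 1.86 in 200M, the latter 21.4% of WT. On the log2 scale young 200M differed from WT by -2.12 (adjusted p = 5.17e-06, SE 0.21), a 4.33-fold reduction, and young 200H by -2.31 (adjusted p = 0.000192, SE 0.29). In the older cohort the values were -2.25 for 200M (adjusted p = 6.2e-06, SE 0.18) and -1.97 for 200H (adjusted p = 3.03e-06, SE 0.15). The 200H and 200M comparisons of a cohort share its WT libraries. Under all alternatives tried, Ehf stayed called, with log2 fold changes from -2.36 to -1.71 in young 200M, from -2.55 to -1.76 in young 200H, from -2.46 to -2.06 in older 200M and from -2.08 to -1.90 in older 200H.

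Ehf was the 1 call among the 4 genes that edgeR tested in each of these 4 comparisons, and also the 1 call among the 5 to which DESeq2 gave an adjusted p (Elf5 being the other). None was called higher by edgeR. Over all genes tested, 10% were called lower in young 200M, 5.72% in young 200H, 9.77% in older 200M and 5.14% in older 200H. The second altered allele added no called change in Ehf. The 200M minus 200H difference was 0.18 in young pituitary (SE 0.27, interval of 2 SE -0.36 to 0.73, adjusted p = 0.993) and -0.28 in older pituitary (SE 0.21, interval -0.71 to 0.15, adjusted p = 0.698). None of the tested members differed between 200M and 200H in either cohort by edgeR or DESeq2, none had an unadjusted p under 0.05, and only 0.0383% and 0.121% of all tested genes were called.

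**Figure D2:**
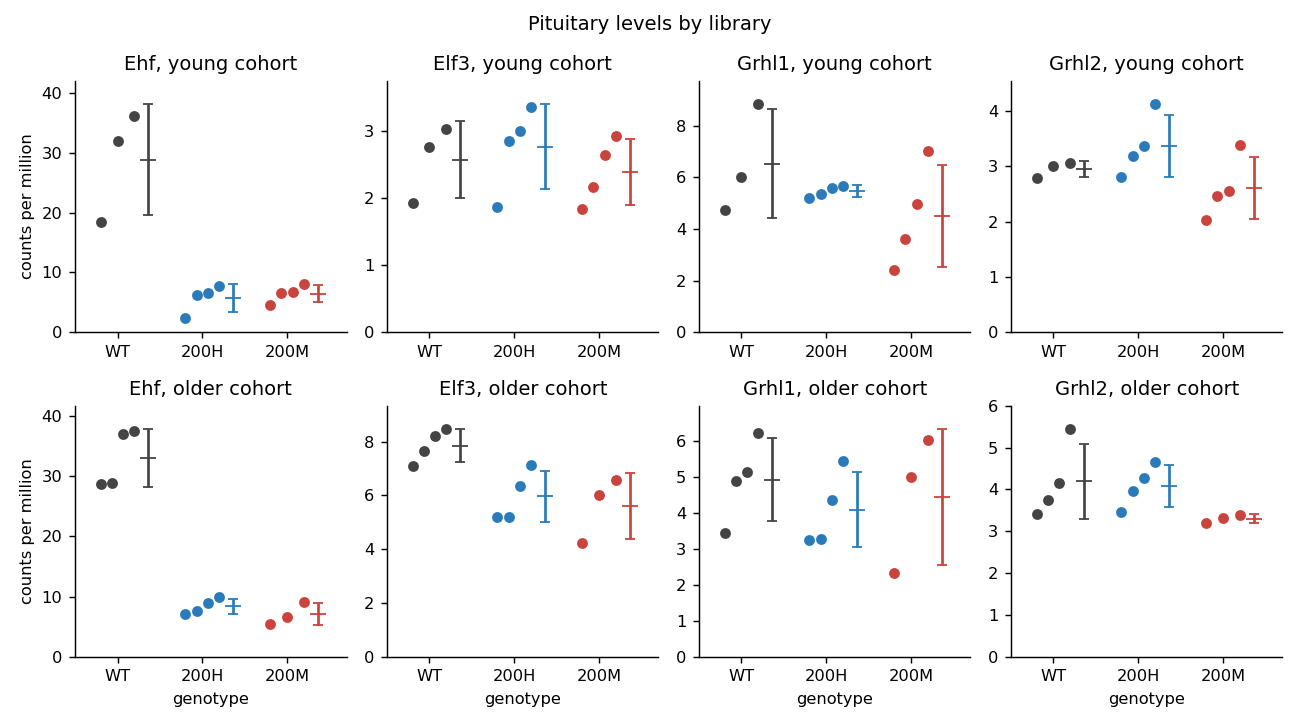
Pituitary level in CPM of Ehf, Elf3, Grhl1 and Grhl2 in WT, 200H and 200M libraries of the young and older cohorts, with a point per library and a bar at the mean ± SD. For Ehf the WT points lie at 18.4 CPM or above and all altered libraries at 9.91 CPM or below, whereas the genotypes of Grhl1 overlap in both cohorts and those of Elf3 and Grhl2 in the young cohort.

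In whole tissue, fewer cells of a type and less RNA per cell cannot be told apart. The summed level of markers of the gland's own cells was lower in both altered genotypes, and the most abundant hormones weigh most in such a sum. Summed over 10 anterior pituitary markers (hormones, their shared subunits and receptors), young WT libraries held 164314 to 187451 CPM, 200H libraries 70410.8 to 98637 and 200M libraries 68321.2 to 88099.2. In older libraries the sums were 290154 to 322386 CPM in WT, 151394 to 226860 in 200H and 162382 to 211359 in 200M. No marker of that list was at 0. In young 200M against WT 4 of the 10 were called lower (Prl, the hormone prolactin, Cga and Lhb, the subunits of luteinizing hormone, and Pou1f1, a factor of prolactin, growth hormone and thyrotropin cells) and none higher. In older 200M Prl, Cga and Lhb were called lower and Pomc higher. The other markers of the list were not called in these comparisons. Over all genes tested, 10% were called lower in young and 9.77% in older 200M. Posterior pituitary and pituicyte markers moved up, from 241 to 249 CPM in young WT to 294 to 340 CPM in 200M, with 4 of 6 called higher. Stem cell markers overlapped, at 209 to 239 CPM in young WT and 227 to 250 CPM in 200M, with 1 of 7 called higher. The share of all tested genes called higher is not given here, so no excess is read from these counts called higher. The part of these markers in the Ehf result was not tested.

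Elf3, an ETS factor of epithelial differentiation closely related to Ehf, did not move in the young pituitary beyond its spread. Young WT libraries read 2.76, 3.02 and 1.93 CPM, 200H libraries 3.36, 1.87, 3.0 and 2.84, and 200M libraries 2.92, 2.64, 1.83 and 2.16. All 3 genotypes overlapped, and the log2 fold changes were -0.09 in 200M (interval -0.65 to 0.48, adjusted p = 0.871) and 0.11 in 200H (adjusted p = 0.858, SE 0.29). In older pituitary Elf3 read 7.64, 8.20, 8.49 and 7.09 CPM in WT, 5.21, 7.14, 6.34 and 5.19 in 200H, and 6.58, 4.22 and 6.01 in 200M. The 200M libraries lay below all WT libraries, and 1 200H library reached into the WT range. The log2 fold changes were -0.52 in 200M (SE 0.20, unadjusted p = 0.024, adjusted p = 0.088) and -0.39 in 200H (SE 0.17, unadjusted p = 0.034, adjusted p = 0.151), so neither passed the threshold, in a comparison where 9.77% and 5.14% of all tested genes were called lower.

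Grhl1, which is known for activating desmosome genes, had overlapping genotypes in both cohorts. It read 6.03, 8.84 and 4.72 CPM in young WT, 5.68, 5.6, 5.19 and 5.37 in 200H, and 3.61, 4.95, 7.03 and 2.41 in 200M. The log2 fold changes were -0.48 in 200M (interval -1.07 to 0.12, adjusted p = 0.296) and -0.24 in 200H (adjusted p = 0.547, SE 0.22). In older pituitary its counts were lower, 11 to 57 reads a library, and the levels were 5.14, 4.87, 3.44 and 6.22 CPM in WT, 3.24, 5.44, 4.36 and 3.28 in 200H, and 2.34, 4.99 and 6.01 in 200M. The log2 fold changes were -0.16 in 200M (interval -0.74 to 0.43, adjusted p = 0.749) and -0.30 in 200H (adjusted p = 0.458, SE 0.23).

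Grhl2, the grainyhead factor that activates E-cadherin and claudin genes, was at 3.07, 2.80 and 3.0 CPM in young WT pituitary. Young 200H libraries read 4.13, 2.80, 3.20 and 3.37 CPM and young 200M libraries 2.46, 3.38, 2.56 and 2.03, around the WT values on both sides. The log2 fold changes were -0.15 in 200M (interval -0.66 to 0.36, adjusted p = 0.731) and 0.20 in 200H (adjusted p = 0.667, SE 0.24). Older WT pituitary read 3.75, 3.42, 5.46 and 4.14 CPM, older 200H 3.47, 4.26, 3.96 and 4.66, and older 200M 3.40, 3.20 and 3.31. The 3 older 200M libraries all lay just under the lowest WT library, in a comparison with 9.77% of genes called lower, but the log2 fold change was -0.31 (interval -0.79 to 0.17, adjusted p = 0.391), and that of 200H was 0.01 (adjusted p = 0.991, SE 0.20). A reduction of the size seen for Ehf lies outside the intervals of Elf3, Grhl1 and Grhl2 in 200M of both cohorts.

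**Figure D3:**
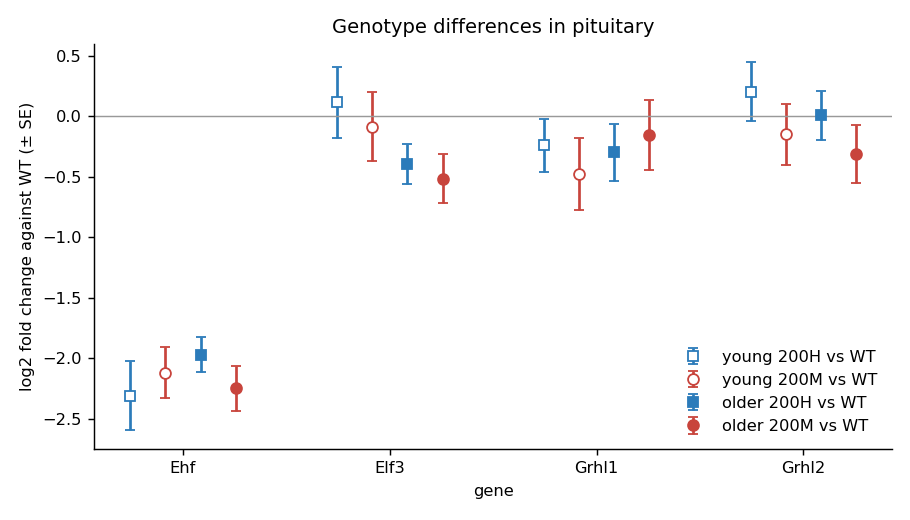
Log2 fold change against WT, with its standard error, of the 4 tested genes in pituitary; squares are 200H, circles 200M, open symbols the young cohort and filled symbols the older cohort. All 4 Ehf values lie between -2.31 and -1.97, and all values of Elf3, Grhl1 and Grhl2 lie between -0.52 and 0.20.

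The other 4 genes had too few pituitary reads to pass edgeR's filter in the comparisons between genotypes. Elf5, known from mammary alveoli and trophoblast, had 7 to 12 reads a library in young WT, 5 to 9 in 200H and 1 to 20 in 200M, and in older tissue 10 to 12, 2 to 15 and 1 to 8. Ovol2, a repressor of mesenchymal genes that include Zeb1, had 4 to 12 reads in young WT, 1 to 6 in 200H and 1 to 8 in 200M, and in older tissue 2 to 7, 2 to 6 and 1 to 5. Grhl3 had 0 to 6 and Ovol1 0 to 3 reads in any pituitary library. DESeq2 gave an adjusted p in the comparisons with WT to Elf5 alone of these genes, with log2 fold changes from -0.62 to -0.39 and adjusted p from 0.634 to 0.835. In young pituitary the Ovol2 means were 0.826 CPM in WT, 0.341 in 200H and 0.291 in 200M, and those of Grhl3 were 0.428, 0.347 and 0.209. In older pituitary the Ovol2 means were 0.641, 0.425 and 0.465 CPM. For both genes the libraries of WT and 200M overlapped in each cohort. At these counts a genotype difference in these 4 genes can be neither shown nor excluded.

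Epithelial effector genes were called lower in large part, and whether the members act on them in this tissue was not tested. Of 48 such genes (among them adhesion, tight junction, polarity and keratin genes), 46 were tested in young 200M pituitary, with 36 called lower and 1 higher. Their median log2 fold change was -1.29, against 0.00 over all genes tested. In older 200M pituitary 32 of 46 were lower and none higher, with a median of -1.19. In 200H 30 of 46 were lower and 1 higher in the young cohort, and 34 of 47 were lower in the older cohort. Over all genes tested, 10% were called lower in young 200M, 9.77% in older 200M, 5.72% in young 200H and 5.14% in older 200H. Esrp1, an epithelial splicing factor, had log2 fold changes of -3.88 in young and -3.96 in older 200M. Rab25, an epithelial trafficking GTPase, had -3.83 and -3.76, and Crb3, an apical polarity protein, -3.40 and -2.92. The paper counts Esrp1 and Rab25 among the targets of ZEB1. The exception was Prom2, at 0.50 in young 200M and 0.69 in young 200H.

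The relatives of the 8 genes moved in both directions. Of 23 other ETS genes, 19 were tested in young 200M pituitary, 5 were called higher and 4 lower, and their median was 0.02. The largest were Etv4 at 1.52, Fev at 1.17 and Etv1 at 0.69, and on the lower side Elf1, a widely expressed ETS factor, at -0.65 and Erf, an ETS repressor, at -0.47. Ehf, at -2.12, changed by more than any of them. Etv4 had a low level, with pituitary means of 0.717 CPM in young WT and 2.09 in young 200M. In older pituitary its means were 1.57 CPM in WT and 3.45 in 200M, with 200M libraries from 0.637 to 4.97. Older pituitary means of WT and 200M were 2.83 and 3.91 CPM for Fev and 16.9 and 30.4 CPM for Etv1. In older 200M 3 of 19 tested ETS genes were higher and 3 lower. Over all genes tested, 10% were called lower in young and 9.77% in older 200M. The share of all genes called higher is not given here, so no excess is read from the counts called higher. The 3 CP2 genes, which are distant relatives of the grainyhead genes, lay between -0.20 and 0.18, with none called and none at an unadjusted p under 0.05 (lowest adjusted p = 0.204). The single other OVO gene had too few reads.

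Among 24 other epithelial transcription factors, 13 were tested in young 200M pituitary, with 4 called lower and 1 higher. Over all genes tested there, 10% were called lower. Foxq1 was at -2.38, close to Ehf, and Klf5 at -0.65, while Tbx3 was at 0.43. Foxq1 had a low level, with pituitary means of 2.52 CPM in young WT and 0.468 in young 200M. In the older cohort its means were 0.856 CPM in WT and 0 in 200M. Older pituitary means of WT and 200M lay close for Klf5 (3.24 and 3.34 CPM) and Tbx3 (13.1 and 14.8 CPM). Of 12 factors linked to epithelial to mesenchymal transition, 9 were tested in young 200M, Zeb1 and Foxc2 (1.20) were called higher and Snai2 (-1.20) lower. The share of all tested genes called higher is not given here. Foxc2 had a low level, with means of 1.78 CPM in young WT and 4.14 in young 200M. In older pituitary it overlapped, at 0.973 to 1.62 CPM in WT and 1.45 to 2.43 in 200M. Older Snai2 did not overlap, at 6.87 to 20.7 CPM in WT and 4.46 to 5.37 in 200M.

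The genes whose pituitary pattern was most like that of each tested member were ranked over the 22 pituitary libraries, by Pearson's r of log2(CPM + 0.5) after the cohort mean was subtracted, among 14304 genes. The points share the genotype difference, the libraries and the marker shift given above. For Ehf the closest were Jakmip1 (r = 0.964), Myo5c (0.939), Prl (0.938), Hmcn1 (0.937) and A830018L16Rik (0.937). The closest values were lower for the other members: 0.711 for Elf3 (Cchcr1), 0.752 for Grhl1 (Thnsl1) and 0.73 for Grhl2 (Gm37233). None of Ehf, Elf3, Grhl1 and Grhl2 was among the 5 closest of another. Elf5, Grhl3, Ovol1 and Ovol2 could not appear, because a mean of at least 1 CPM in pituitary of both cohorts was required.

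In the hypothalamus Grhl1 carried most of the signal of the 8 genes, and no genotype difference was called. Grhl3 came next in young WT, with a mean of 0.940 CPM against 9.30 for Grhl1. Young WT libraries read 10.0, 7.13, 9.44 and 10.6 CPM, 200H libraries 10.5, 10.8, 10.6 and 6.64, and 200M libraries 9.68, 8.32, 9.59 and 14.5. The genotypes overlapped, and 200M differed from WT by 0.19 on the log2 scale (adjusted p = 0.921, SE 0.22). Older libraries, with more than 160 Grhl1 reads each, read 18.6, 19.0, 15.9 and 19.9 CPM in WT, 16.0, 20.4, 18.1 and 16.2 in 200H, and 17.6, 18.9 and 15.4 in 200M. Older 200M differed from WT by -0.09 (interval -0.34 to 0.15, adjusted p = 0.73).

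Grhl3 was the only other member tested there, in the older cohort, with 10 to 11 reads a library in WT, 12 to 23 in 200H and 7 to 19 in 200M, and it had 0 to 9 reads in any young library. The remaining genes had at most 4 reads in any young library and at most 12 in any older one, and Ovol2 had none in any of the 12 young libraries. None of the members was called in the 6 hypothalamus comparisons by edgeR or DESeq2, and none had an unadjusted p under 0.05. Of all tested genes, 0.02% were called in young 200M and 0.0202% in young 200H against WT, 0.00622% in older 200M against WT, and 0% in the other 3 comparisons. Over all genes the tools differed widely in the older hypothalamus: DESeq2 called 618 genes in 200M against WT, where edgeR called 1, and 667 in 200M against 200H, where edgeR called 0. By edgeR the 200M against WT count was 111 without 200M replicate 1 and 265 without WT replicate 1.

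In the ovary, some libraries stood apart in markers of oviduct epithelium, the lining of the tube next to the ovary, and in the older cohort Ehf, Elf3 and Grhl2 were highest where those markers were highest. Summed over 6 oviduct markers, older WT replicate 1 held 802 CPM against 30.4 to 36.2 in the other older WT libraries. Older 200H replicate 4 held 3221 CPM and replicate 3 held 431, against 44.7 and 37.9 in the other 200H libraries. Older 200M replicate 3 held 3366 CPM, and the other 200M libraries 369, 79.7 and 362. In the young cohort 200H replicate 1 (24.9 CPM) and 200M replicate 4 (31.1 CPM) stood low, against 236 to 615 CPM in the other 10 libraries. Fat cell markers also varied in older ovary, from 55.1 to 1423 CPM, and choroid plexus and ependyma markers from 70.5 to 590 CPM. The 6 oviduct markers are not particular to oviduct, as they summed to 144 to 243 CPM in older hypothalamus. The part of these markers in the ovary values was not tested, and results are given with and without WT replicate 1, 200H replicate 4 and 200M replicate 3 of the older cohort and 200H replicate 1 and 200M replicate 4 of the young cohort.

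Older ovary Ehf read 41.9, 5.49, 6.32 and 4.67 CPM in WT replicates 1 to 4, 7.23, 7.74, 15.0 and 123 in 200H, and 26.6, 9.11, 157 and 29.9 in 200M. Elf3 read 30.7, 3.74, 3.57 and 2.33 CPM in WT, 5.10, 2.20, 12.1 and 60.5 in 200H, and 18.2, 8.14, 101 and 11.4 in 200M. Grhl2 read 8.11, 0.557, 0.825 and 1.13 CPM in WT, 0.371, 0.287, 2.81 and 20.2 in 200H, and 3.81, 0.729, 35.3 and 3.52 in 200M. For each gene the highest library of each genotype was the library of that genotype highest in oviduct markers. Elf5 and Ovol2 did the same at lower levels: Elf5 had 10, 33 and 39 reads in those 3 libraries and at most 2 in the others, and Ovol2 had 10, 30 and 44 reads there and at most 13 elsewhere.

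With all libraries, older 200M differed from WT on the log2 scale by 1.94 for Ehf (adjusted p = 0.364, SE 0.99), by 1.80 for Elf3 (adjusted p = 0.418, SE 1.04) and by 2.05 for Grhl2 (adjusted p = 0.425, SE 1.21). Leaving out single libraries moved these values between 0.58 and 3.36, 0.31 and 3.45, and 0.03 and 3.71, with no call; each was lowest without 200M replicate 3 and highest without WT replicate 1. Without the libraries that stood apart, a choice made after seeing the data, Ehf was at 1.98 (adjusted p = 0.0402) and Elf3 at 1.94 (adjusted p = 0.0227), and both were called higher. The 200M libraries that remained still held 79.7 to 369 CPM of oviduct markers against 30.4 to 36.2 in WT, and the part of that difference in these calls was not tested.

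Grhl3 behaved differently in the older ovary. It read 2.82, 3.66, 2.02 and 5.87 CPM in WT, 3.43, 1.91, 2.88 and 1.52 in 200H, and 1.57, 0.729, 1.44 and 1.30 in 200M. The 4 older 200M libraries lay below all WT libraries, and the 200H libraries lay across both. For 200M against WT the fitted log2 value was -1.49 (SE 0.38, unadjusted p = 0.0033, adjusted p = 0.0789), which missed the threshold in a comparison where 2.71% of all tested genes were called. By DESeq2 it was -1.52 and passed (adjusted p = 0.0173). Over the alternatives tried the value lay between -1.69 and -1.16. In the young ovary Grhl3 read 2.50, 2.53, 1.48 and 2.74 CPM in WT and 2.03, 1.07, 2.36 and 1.61 in 200M, which overlapped, and the log2 fold change was -0.39 (SE 0.34).

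Ovol1, the OVO factor of skin and germ cells, was at 0.705, 1.35, 1.01 and 0.885 CPM in older WT ovary and at 1.46, 1.94, 1.60 and 1.53 in 200M, without overlap. These values rest on 8 to 20 reads a library. The log2 value for 200M over WT was 0.71 (adjusted p = 0.224, SE 0.27). Grhl1 was level across the older ovary, at 4.5, 2.78, 3.94 and 2.74 CPM in WT and 3.36, 3.40, 3.92 and 4.44 in 200M, and 200M differed from WT by 0.12 (adjusted p = 0.822, SE 0.24).

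None of the 6 tested members was called in older 200M ovary by edgeR, although 2 (Grhl3 and Ovol1) had an unadjusted p under 0.05 and DESeq2 called 1 (Grhl3). In older 200H against WT none was called by edgeR or DESeq2 and none had an unadjusted p under 0.05, and 0% of all tested genes were called. In older 200M against 200H none was called by edgeR or DESeq2, 1 (Grhl3) had an unadjusted p under 0.05, and 1.61% of all tested genes were called.

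**Figure D4:**
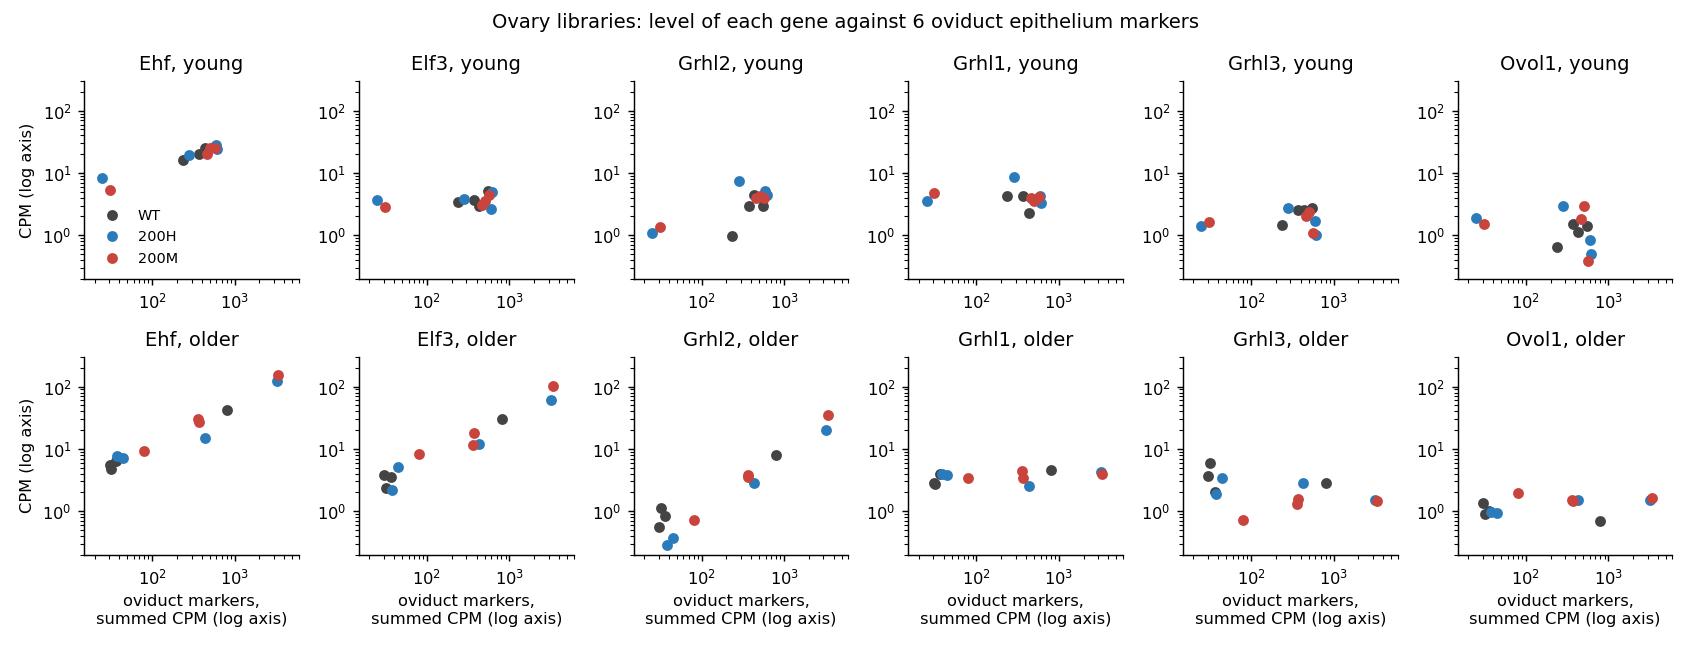
Ovary level in CPM of 6 genes against the summed CPM of 6 oviduct epithelium markers in the same library, both on log axes, with the young cohort in the top row and the older cohort in the bottom row and a point per library coloured by genotype. In the older cohort the libraries with the highest marker sums (802, 3221 and 3366 CPM) are the highest for Ehf (41.9, 123 and 157 CPM), Elf3 and Grhl2, while Grhl1, Grhl3 and Ovol1 show no such rise.

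The young ovary repeated the Ehf pattern at the other end of the marker range. Young ovary Ehf read 25.6, 20.5, 15.9 and 26.6 CPM in WT, 8.42, 23.9, 27.6 and 19.7 in 200H, and 20.2, 25.2, 25.3 and 5.41 in 200M. The lowest values, in 200H replicate 1 and 200M replicate 4, came from the libraries lowest in oviduct markers, and these libraries, together with WT replicate 3, also had the lowest Grhl2 (1.07, 1.38 and 0.984 CPM). Elf3 did not follow the markers in the young ovary, where 200H replicate 1 read 3.68 CPM within a range of 2.68 to 5.07 over all 12 libraries. The log2 fold change of Ehf in young 200M was -0.22 (adjusted p = 0.815, SE 0.32) with all libraries and 0.10 (adjusted p = 0.872) without the libraries that stood apart. Those of Elf3, Grhl1, Grhl2 and Ovol1 were -0.11, 0.17, 0.28 and 0.46, and none of the 6 tested members was called in any of the 3 young ovary comparisons by edgeR or DESeq2 or had an unadjusted p under 0.05. Of all tested genes, 2.58% were called in young 200M against WT, 0.0051% in young 200H against WT and 0% in young 200M against 200H. Of the ovarian surface epithelium markers, 4 of 7 were called lower in young 200M ovary, and of the epithelial effector genes 2 of 44 in young and 1 of 47 in older 200M ovary.

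A further question was whether 200M changed Ehf to a different extent in pituitary than elsewhere, and the interaction term tested it: the 200M effect (log2, against WT) in pituitary minus the 200M effect in the other tissue. Between young pituitary and young ovary the difference was -1.90 (adjusted p = 0.0079, SE 0.44), and Ehf was the only one of the 8 members called, all of which passed the filter over both tissues, where 10.1% of all tested genes were called. It stayed called under all alternatives run, between -2.22 and -1.59. Between older pituitary and older ovary the difference was larger but less certain, at -4.18 (SE 1.23, unadjusted p = 0.0041, adjusted p = 0.0608), where 5.77% of all tested genes were called. It passed without the libraries that stood apart (-4.23, adjusted p = 6.43e-05), without older ovary WT replicate 1 alone (-5.57, adjusted p = 0.00563) and without older ovary 200M replicate 2 (-4.53, adjusted p = 0.0304). Part of this difference is the ovary value itself (1.94, or 1.98 without those libraries), and in the libraries then left the oviduct markers were at 79.7 to 369 CPM in 200M and 30.4 to 36.2 CPM in WT. Their part in the interaction was not tested.

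Against hypothalamus the fit rests on very few Ehf reads, 0 to 4 a library in the young and 1 to 8 in the older cohort. Ehf did not pass the filter in hypothalamus alone and entered these fits through its pituitary reads, so the values are given as a description. The difference was -3.02 (adjusted p = 0.22, SE 1.47) in the young cohort, where 10.5% of all tested genes were called. In the older cohort it was -2.57 (adjusted p = 0.0136, SE 0.68), where 17.5% were called. Without older hypothalamus 200M replicate 3, which held the 8 reads, the older difference was -1.49 (adjusted p = 0.374). Between the cohorts the pituitary effect of 200M on Ehf differed by -0.19 (older minus young, SE 0.32, interval -0.83 to 0.45, adjusted p = 0.963), and none of the 5 tested members was called or had an unadjusted p under 0.05, against 0.0273% of all tested genes called. No DESeq2 fit was made for the interactions.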

How the data were processed

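The authors aligned reads of 50 nt to mm10 with STAR 2.7.1a and deposited raw counts per gene. Young libraries and older ovary were counted with featureCounts (GENCODE M25) and older pituitary and hypothalamus with HTSeq. The authors' own comparison columns (fold changes and p-values) were not used, nor were 141 per-sample columns, 138 of them the authors' normalized values and 3 raw WT columns of 1 young pituitary table in which a header is repeated. Columns were matched to samples by name, and 1 young WT pituitary column carries a number that no sample title has. Genes kept by filterByExpr were tested pairwise on the counts with edgeR 4.0.16 (quasi-likelihood F test, TMM, Benjamini-Hochberg over all genes tested, R 4.3.3). Standard errors are the absolute log2 fold change divided by the square root of F. DESeq2 1.42.0, other scaling, no filter, a replicate block, 3 genotypes in 1 fit and leaving out each library were alternatives. Scripts were tested on simulated data. The members, gene lists and naming rule (all members, up to 3 called genes of a list with the largest change and up to 2 of the opposite direction in young 200M pituitary, and the 5 most alike genes) were chosen with earlier results of these data known. Replicates of a group differed by more than sampling noise (lowest chi-square per degree of freedom 1.89 over 99 pairs). Values of 1 listed gene and 1 promoter stretch are not reported here.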

Additional observations from a re-analysis of the deposited data

Results flagged for a closer look

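In groups of 4 libraries, a library was singled out when its distance from the nearest other library, divided by the range of the group, passed Dixon's 95% critical value. Of 59 groups tested, 11 had such a library, and chance gives about 1 in 20. In the older ovary 9 of the 11 fell on the same 3 libraries: 200H replicate 4 (Ehf 123, Elf3 60.5 and Grhl2 20.2 CPM), 200M replicate 3 (Ehf 157, Elf3 101 and Grhl2 35.3 CPM) and WT replicate 1 (Ehf 41.9, Elf3 30.7 and Grhl2 8.11 CPM). These are the libraries highest in oviduct epithelium markers within their genotypes, and the part of those markers was not tested. In young ovary, Grhl2 in 200M replicate 4 was low, at 1.38 CPM against 3.95 to 4.29 in the other 3. In young hypothalamus, Grhl1 in 200H replicate 4 was low, at 6.64 CPM against 10.5 to 10.8.

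The 200M effect on Ehf differed between young pituitary and young ovary by the interaction test, by -1.90 on the log2 scale. The corresponding value between older pituitary and older hypothalamus was -2.57. It rests on 1 to 8 Ehf reads per hypothalamus library, Ehf passed the filter there only through pituitary, and without older hypothalamus 200M replicate 3 the value was -1.49 (edgeR adjusted p = 0.374), so no difference is read from it.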

How the results depend on the processing

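Of 599 fold changes recomputed under the alternatives, 556 kept their direction and their side of the threshold, 13 lost a call, 10 gained a call and 20 changed sign. The pituitary calls of Ehf against WT held throughout. In older 200M ovary the count of called members went from 0 to 1 under DESeq2, 1 with 3 genotypes in 1 fit and 2 without the libraries that stood apart, an alternative chosen after seeing the data. For older pituitary minus older ovary it went from 0 to 1 with no filter, 2 without those libraries, and 0 to 2 when single libraries were left out. For older pituitary minus older hypothalamus, leaving out single libraries gave 0 to 2 (1 with all). Between young WT tissues, the count went from 3 to 5 for pituitary and hypothalamus and from 3 to 6 for ovary and hypothalamus, under DESeq2 and with no filter alike, and leaving out single libraries gave 2 to 4 for pituitary and ovary, 2 to 4 for pituitary and hypothalamus and 3 to 5 for ovary and hypothalamus. The cause of these changes was not tested.

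Signs changed only for values that were not called. Leaving out single libraries gave, in young pituitary, -0.25 to 0.04 for Elf3 in 200M, -0.05 to 0.26 for Elf3 and -0.43 to 0.03 for Grhl1 in 200H, and -0.06 to 0.37 for Ehf in 200M against 200H. In older pituitary it gave -0.38 to 0.11 for Grhl1 in 200M and -0.09 to 0.13 for Grhl2 in 200H. In 200M against WT it gave -0.02 to 0.29 for Grhl1 in young hypothalamus and, in young ovary, -0.40 to 0.10 for Ehf (0.10 also without the libraries that stood apart), -0.25 to 0.07 for Elf3 and -0.03 to 0.60 for Grhl2. It gave -0.39 to 0.07 for the older minus young pituitary effect on Ehf and -0.07 to 0.55 for Grhl2 between young WT pituitary and ovary.

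Within a tissue and cohort, replicate numbers did not pair the libraries of different genotypes. The correlations of same-numbered deviations ranged from -0.70 to 0.44, and in no comparison with at least 3 pairs were all above 0.1. A replicate block gave -1.71 for Ehf in young 200M pituitary, still called, -0.16 for Elf3 in young 200H pituitary, and, between young WT pituitary and ovary, 0.25 for Ehf, no longer called, and -0.16 for Grhl2. Between young WT pituitary and hypothalamus it gave -0.29 for Grhl1, no longer called. Low counts limit Elf5, Grhl3, Ovol1 and Ovol2 in pituitary and all members except Grhl1 in hypothalamus.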
